A study of Mus musculus with 8 samples.

Results

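The 5 genes of the mouse NF-κB family, Nfkb1, Nfkb2, Rel, Rela and Relb, were followed at the mRNA level through the early response of macrophages to LPS. They were taken by gene symbol from a table of 23143 gene symbols, of which 16967 had a count in any of the 8 libraries, and each of the 5 had counts in every library. RAW264.7 cells, a transformed mouse macrophage line, were left unstimulated (0 min) or received LPS of E. coli serotype O111:B4 at 100 ng/ml for 15, 30, 45, 60, 75, 90 or 120 min. There was 1 RNA-seq library per time point and a single cell line, so no value below has an error between cultures. Intervals are 95% intervals that cover counting error only, and a comparison of time points is a comparison of 2 libraries. The sample labels name the RNA fraction as cytoplasmic and the molecule as total RNA, and the study's text speaks of total RNA.

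NF-κB transcription factors are dimers of proteins that share a Rel homology domain. Rela (p65), Rel (c-Rel) and Relb carry a transactivation domain, whereas Nfkb1 and Nfkb2 encode the precursors p105 and p100, whose ankyrin repeats hold dimers in the cytoplasm as an IκB does and which are processed to the DNA-binding subunits p50 and p52. LPS acts through the receptor Tlr4 on the IκB kinase (IKK), which marks IκBα for degradation and releases Rela and Rel dimers. The noncanonical branch, through the kinase NIK, processes p100 and releases Relb.

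Total counts ranged from 100250892 to 159077286 per library. The 45S rRNA precursor gene Rn45s took 8.18 to 9.11% of the counts in the 0, 30, 60 and 120 min libraries and 13.0 to 20.5% in the libraries at 15, 45, 75 and 90 min. All 7 macrophage markers were detected, with a summed level of 4551 to 6333 cpm (counts scaled to a library of 1000000). Of the fibroblast and epithelial markers, 3 of 4 in each list were at 0 counts in every library, the B cell list reached at most 0.119 cpm, and the 4 T cell markers together stayed at 0.870 to 1.36 cpm.

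All 5 mRNAs were higher 120 min after LPS than in the unstimulated library, and they differed in when and how far they rose. Rel rose furthest, to 12.7 times its starting level, and was called earliest, at 30 min, a call that was lost under some settings. Relb and Nfkb2 reached about 4 times theirs, Nfkb1 rose last, and Rela was the one member whose highest value came before 120 min. A gene was called higher or lower where the log2 ratio of normalized counts (counts divided by the library's median-of-ratios size factor) was beyond 0.5 and an exact negative binomial test of the 2 libraries gave an unadjusted p under 0.05. The dispersion of that test was estimated over all 8 libraries as if they were replicates, and at these settings the smallest rise called among genes with a mean normalized count over 1000 was a log2 ratio of 0.68.

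Rel, whose product c-Rel is a transactivating subunit with a prominent role in lymphoid and myeloid cells, had normalized counts of 789, 929, 1373, 2815, 3541, 5954, 7591 and 9989.65 in the 8 libraries from 0 to 120 min, in the order of time. Each library was above the one before it. The ratio to 0 min was 1.74 (1.61 to 1.89) after 30 min, 4.49 (4.18 to 4.83) after 60 min and 12.7 (11.8 to 13.6) after 120 min. Rel was the only member called at 30 min, and it was called at each later time. The 30 min call was lost with Benjamini-Hochberg adjustment, with a log2 limit of 1, when libraries were scaled by total counts (log2 ratio 0.77 against 0.80) or when each library's trend with transcript length was removed (0.65), and at 45 min and later Rel was called under both scales. Between neighbouring time points the step from 30 to 45 min (2.05 times, 1.93 to 2.18) and the step from 60 to 75 min (1.68 times, 1.61 to 1.76) were called.

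Relb, the transactivating subunit that pairs mainly with p100 and p52, had normalized counts of 2548, 2537 and 2897 at 0, 15 and 30 min. From 45 min to 120 min the values were 4907, 7523, 8127, 8612 and 10289. The first 3 libraries lay close together, and most of the increase up to 75 min fell between 30 and 60 min, where the ratio was 2.60 (2.50 to 2.70) and called. Relb was first called at 45 min, with a ratio to 0 min of 1.93 (1.84 to 2.02). That call was lost with total counts as the scale (log2 ratio 0.76), with Benjamini-Hochberg adjustment and with a log2 limit of 1. The ratio to 0 min was 2.95 (2.83 to 3.08) at 60 min and 4.04 (3.88 to 4.20) at 120 min. From 60 to 120 min Relb gained 1.37 times (1.33 to 1.41), which was not called.

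Rela, the main transactivating subunit of the canonical pathway, had normalized counts of 3354, 3546, 4249, 6751, 8014, 8493, 7669.6 and 7376 in the same order. The level climbed until 60 to 75 min and was slightly lower in the last 2 libraries. Rela was first called at 45 min, with a ratio of 2.01 (1.93 to 2.10), and was highest at 75 min with 2.53 (2.43 to 2.64). At 120 min it was 2.20 times (2.12 to 2.28) the starting level. The 120 min value was 0.920 of that at 60 min (0.894 to 0.948) and 0.869 of that at 75 min (0.841 to 0.897); both intervals lay below 1 and neither difference was called. The 60 and 75 min libraries differed by 1.06 times (1.03 to 1.09), and with total counts as the scale the order of these 2 libraries turned, with log2 ratios to 0 min of 1.16 at 60 min and 1.01 at 75 min. The 60 and 120 min libraries are both among those low in Rn45s. The 45 min call was lost with Benjamini-Hochberg adjustment.

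Nfkb2, which encodes p100, had normalized counts of 6444, 6464, 7498, 9211, 12619, 15346, 16851 and 24283 from 0 to 120 min. The 15 min library did not differ from the unstimulated one beyond counting error (interval of the ratio 0.971 to 1.04), and every later library was above the one before it. Nfkb2 was called from 60 min on, at 1.96 times (1.90 to 2.01) the starting level, and reached 3.77 times (3.67 to 3.86) at 120 min. The 60 min call was lost with Benjamini-Hochberg adjustment and with a log2 limit of 1. From 60 to 120 min it gained another 1.92 times (1.89 to 1.96), which was called.

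Nfkb1, which encodes p105, had normalized counts of 19350.3, 19959, 19539.7 and 19895 in the first 4 libraries, 0 to 45 min. The 60, 75, 90 and 120 min libraries had 24949.7, 30158, 32032 and 48192. The first 45 min passed with ratios of 1.01 to 1.03 to the unstimulated library, and the step from 90 to 120 min, which spans 30 min where the others span 15, was 1.50 times (1.48 to 1.53). The ratio to 0 min was 1.29 (1.27 to 1.31) after 60 min, 1.66 (1.63 to 1.69) after 90 min and 2.49 (2.45 to 2.53) at 120 min. Nfkb1 was called at 90 and 120 min. The 90 min call was lost with total counts (log2 ratio 0.47), total counts without Rn45s (0.59) or TMM factors (0.69) as the scale, with the dispersion of edgeR, with Benjamini-Hochberg adjustment, with a log2 limit of 1 and when the 30 min library was left out. The call at 120 min was lost under none of the alternatives run.

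**Figure D1:**
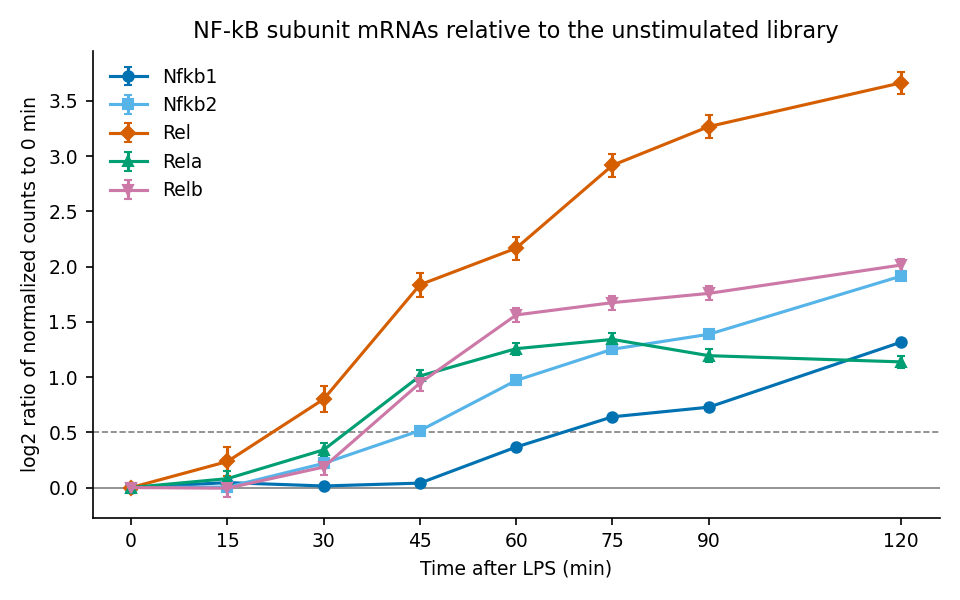
Log2 ratio of normalized counts to the 0 min library (vertical axis) against minutes after LPS (horizontal axis) for the 5 mRNAs; each point is 1 library, error bars are 95% counting intervals, and the dashed line marks a log2 ratio of 0.5. Rel is the highest line from 15 min on and ends at 3.66, Nfkb1 stays near 0 until 45 min, and Rela turns down after 75 min and ends lowest, at 1.14.

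Set beside all genes, the number of members called higher than at 0 min was 0 of 5 at 15 min, where 0.295% of all genes tested were, 1 of 5 at 30 min (1.14% of all), 3 of 5 at 45 min (3.8%), 4 of 5 at 60 min (3.43%), 4 of 5 at 75 min (4.77%), 5 of 5 at 90 min (5.79%) and 5 of 5 at 120 min (7.63%). Among genes that averaged 1000 or more normalized counts over the 8 libraries the share called higher was 3.83% at 60 min and 9.06% at 120 min; Rel, at 789 and 929 at 0 and 15 min, reached that average only through its later libraries. Of the 10494 genes that averaged 100 or more, 63 had a larger ratio at 120 min than Rel, 183 a larger one than Relb, 201 than Nfkb2, 349 than Nfkb1 and 446 than Rela. At 60 min the order within the family was different, with Rel (97 genes above it), Relb (157) and Rela (200) ahead of Nfkb2 (295) and Nfkb1 (1127).

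The order in time can be given by the moment at which the normalized count, read along straight lines between neighbouring libraries, passed the midpoint between the 0 min value and the highest value. This was 40.0 min for Rela, 53.7 min for Relb, 71.5 min for Rel, 75.2 min for Nfkb2 and 93.2 min for Nfkb1. By this measure the 3 genes for transactivating subunits passed their midpoint before the 2 precursor genes. Rel and Nfkb2 lay within 4 min of each other, less than the spacing of the libraries. For all members but Rela the highest value was in the last library, so their midpoints depend on where sampling ended. Rel was called first and reached its midpoint after Rela and Relb.

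The study groups genes by their maxima and minima, each called against the last called minimum or maximum or the 0 min library, and its wording leaves the handling of ties open. With the calls of the 28 pairs of libraries read in this way, all 5 belonged to g1, the mRNAs with a first maximum at or after 60 min and no earlier minimum. Of all genes with a count, 7.34% were in g1. The maximum was at 120 min, the last library, for Nfkb1, Nfkb2, Rel and Relb, and at 75 min for Rela. Comparing the second hour with the first directly, 3 of 5 members, Nfkb1 (1.93 times, 1.90 to 1.96), Nfkb2 and Rel (2.82 times, 2.72 to 2.92), were called higher at 120 than at 60 min, against 3.61% of all genes.

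Levels between the genes were compared per length, in rpkm (reads per kb of 58-base stretches unique to the gene, scaled to a library of 1000000 counts). In unstimulated cells Nfkb1 stood highest with 42.5 rpkm (42.0 to 43.1), followed by Nfkb2 with 18.2 (17.8 to 18.6). Rela with 11.3 (10.9 to 11.6) and Relb with 10.6 (10.2 to 10.9) were next to each other and their counting intervals overlapped. Rel was far below, at 0.951 rpkm (0.891 to 1.01). At 120 min the order was Nfkb1 with 92.1 rpkm (91.3 to 92.8), Nfkb2 with 59.6 (58.9 to 60.3), Relb with 37.1 (36.4 to 37.7), Rela with 21.5 (21.1 to 22.0) and Rel with 10.5 (10.3 to 10.7). Relb and Rela had changed places, with Relb at 0.842 of Rela per length at 30 min, 1.16 times it at 60 min and 1.72 times it at 120 min. The low level of Rel rests on an annotated transcript of 7466 bases, most of it 3′UTR; a shorter transcript in these cells would give it a higher rpkm at each time, and transcript ends were not analysed here.

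**Figure D2:**
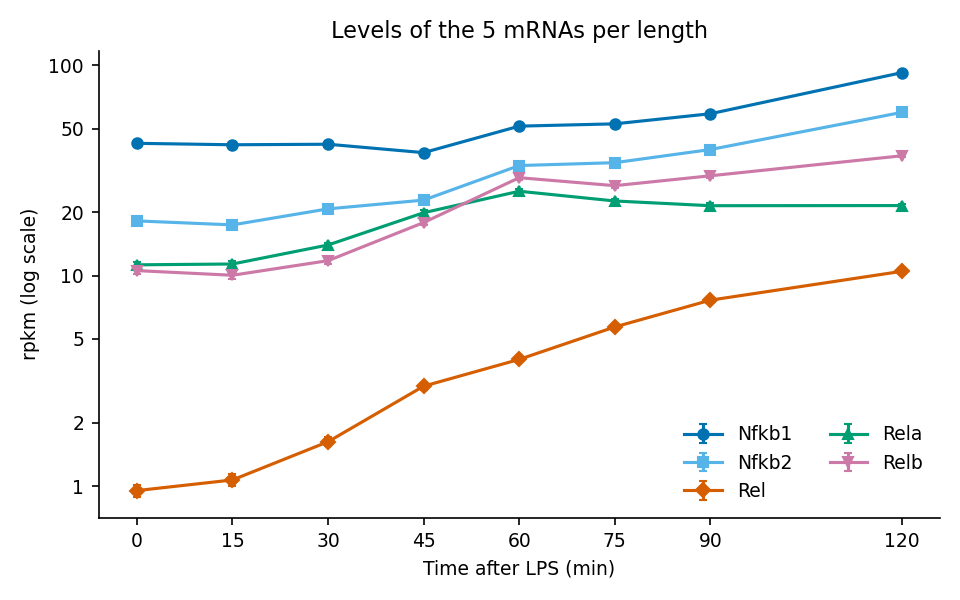
Level of each mRNA in rpkm on a log scale (vertical axis) against minutes after LPS (horizontal axis), 1 library per point with 95% counting intervals. Rel climbs from 0.951 to 10.5 rpkm and stays the lowest of the 5 throughout, Nfkb1 stays the highest, and Relb crosses Rela between 45 and 60 min.

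The summed level of the 5 mRNAs went from 83.5 rpkm at 0 min to 143 at 60 min and 221 at 120 min. Its composition shifted and then partly returned. Nfkb1 and Nfkb2, the precursor genes, made up 72.7% of the sum at the start, 59.2% at 60 min and 68.7% at 120 min. Nfkb1 alone went from 50.9% to 35.9% at 60 min and 41.7% at 120 min. Rela rose from 13.5% to 19.5% at 45 min and then went down to 9.75% at 120 min, the lowest share of its 8 libraries. Rel went from 1.14% to 4.74%, and its ratio to Rela per length from 0.0845 to 0.487. Nfkb1 mRNA was 3.78 times that of Rela per length at 0 min, 1.93 times at 45 min and 4.28 times at 120 min. These shares carry no test. They do not depend on a factor common to a library, since all 5 are divided by the same total. Removing each library's trend with transcript length moves the 5 unequally, and the shares were not computed in that way.

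**Figure D3:**
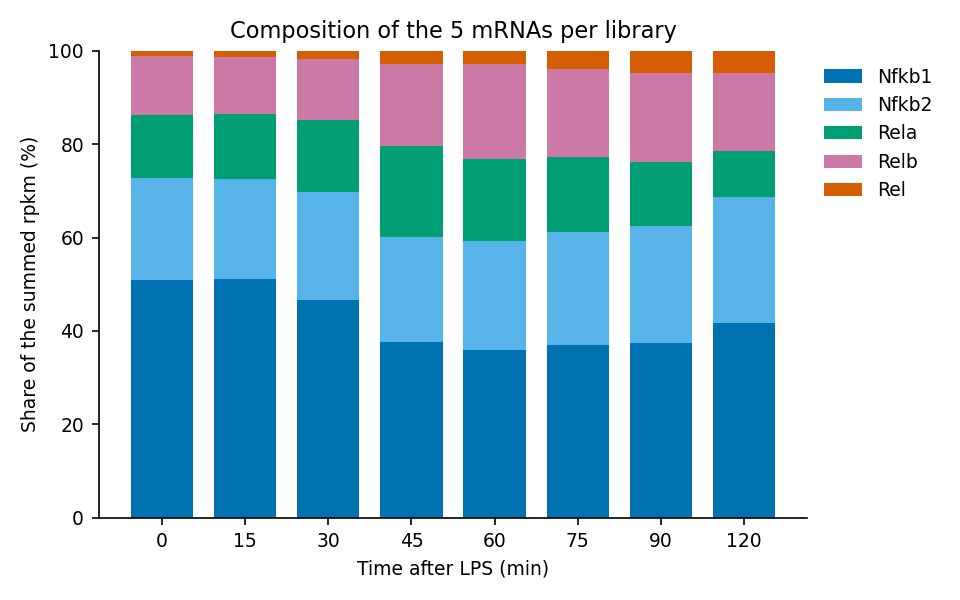
Share of each mRNA in the summed rpkm of the 5 genes, in percent (vertical axis), for the library at each time after LPS (horizontal axis). The 2 lower segments, Nfkb1 and Nfkb2, shrink from 72.7% to 59.2% together by 60 min and widen to 68.7% by 120 min, while the Rel segment at the top widens from 1.14% to 4.74%.

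The 5 genes lie on 4 chromosomes, with these coordinates in GRCm38. Nfkb1 spans chr3:135584655-135691969 with 25 exons, Nfkb2 chr19:46300994-46312400 with 23 exons, Rel chr11:23736847-23770969 with 10 exons, Rela chr19:5637442-5648134 with 11 exons and Relb chr7:19606217-19629438 with 12 exons. Exons of Nfkb2 overlap annotated exons on the opposite strand, over 531 bases those of the noncoding gene AC114539.1 and over 299 bases those of Psd. Whether reads were counted by strand is not given in the sources used here; Psd had 81 to 211 counts per library. The 3′UTRs differed strongly. That of Rel is 5418 bases long and holds 12 AUUUA pentamers, the core of AU-rich elements, a number that 3.57% of 11276 genes with a 3′UTR reached, while 2.70% had a longer 3′UTR. Per kb, at 2.21, Rel was exceeded by 30.6% of these genes. Nfkb1 holds 4 in 700 bases (5.71 per kb, exceeded by 4.62%) and Nfkb2 1 in 133 bases (7.52 per kb, exceeded by 2.20%), while Rela (714 bases) and Relb (336 bases) hold none. At least 1 pentamer was found in 67.3% of those genes.

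The promoters of Rel and Nfkb2 are shown because their windows hold stretches that match the κB consensus, the 10-base motif bound by NF-κB. A link between these matches and the courses of the mRNAs was not tested. The consensus was searched on both strands, and overlapping matches were joined, in RefSeq windows (GRCm38) from 250 bases before to 50 bases after an annotated start. It was found in 4.51% of all 32851 windows and for 5.14% of 27025 genes. Windows were at hand for Rel, Rela and 3 annotated starts of Nfkb2, and none for Nfkb1 or Relb. The first of these Nfkb2 starts, at chr19:46304737, lies inside the gene span given above, which begins at 46300994. No window covered the beginning of that span. Below, 30 bases are printed 5′ to 3′ on the strand of the gene, with the matching bases in capitals. The first stretch lies 92 bases before the start of Rel on the minus strand. The next pair lies 39 and 11 bases before the first of the 3 Nfkb2 starts, on the plus strand. The last pair, on the same strand, begins 236 bases before the second start and at base 11 from it, with the start itself counted as the first base. The last of them also lies 225 bases before the third start.
Rel, chr11:23771041-23771070: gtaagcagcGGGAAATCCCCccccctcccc
Nfkb2 start 1, chr19:46304689-46304718: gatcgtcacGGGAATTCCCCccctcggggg
Nfkb2 start 1, chr19:46304716-46304745: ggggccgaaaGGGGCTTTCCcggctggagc
Nfkb2 start 2, chr19:46305449-46305478: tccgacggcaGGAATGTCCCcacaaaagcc
Nfkb2 start 2, chr19:46305695-46305724: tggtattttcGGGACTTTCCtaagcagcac
The Rela window held no match, which says only that these letters are not in this window. The matches are a description of sequence; binding was not measured.

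The IκB proteins are the direct inhibitors and partners of the subunits, and some of their mRNAs were called earlier. At 15 min, when no subunit mRNA was called, 3 of the 6 were called higher, where 0.295% of all genes tested were. Nfkbia and Nfkbid were called there at log2 ratios of 0.75 and 0.85, close to the 0.80 of Rel at 30 min. Other scales and adjustments were run for the subunits only, so whether these calls depend on them was not tested. Nfkbia, which encodes IκBα and frees Rela and Rel when its product is degraded, was at 1.68 times (1.65 to 1.71) its starting level by 15 min, 7.25 times (7.13 to 7.37) by 45 min, 3.67 times (3.61 to 3.74) at 60 min and 7.60 times (7.48 to 7.73) at 120 min. Nfkbiz, which encodes the nuclear coactivator IκBζ, was at 3.70 times at 15 min, 159 times (149 to 170) at 60 min and 112 times at 120 min. Nfkbid, for the nuclear IκBNS, was at 1.81 times at 15 min, 9.36 times at 45 min, 2.05 times at 75 min and 3.51 times at 120 min. The normalized counts of these 3 were lower at 75 min than at 45 min, whereas those of the 5 subunits were higher. Nfkbib, for IκBβ, was at 2.30 times at 45 min, 2.75 times at 60 min and 3.74 times at 120 min. Nfkbie, for IκBε, and Bcl3, a partner of p50 and p52, stood at 1.21 and 1.17 times at 60 min, not called, and were called at 120 min with 2.26 and 1.89 times. All 6 were called higher at 120 min, where 7.63% of all genes were. The list's median log2 ratio was 1.86, against -0.01 over the 12152 genes compared. Per length, Nfkbia mRNA was 7.22 times that of Rela at 0 min, 34.9 times at 30 min, 11.1 times at 60 min and 25.0 times at 120 min.

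The mRNAs for the kinases and adaptors upstream moved less. Shares of all genes called higher were 3.43% at 60 min and 7.63% at 120 min. Those called lower were 2.36% at 60 min and 6.7% at 120 min. Of 10 genes for IKK, NIK and the ubiquitin ligases that keep NIK low, 2 were called higher at 60 min and 3 at 120 min, with none lower and a median log2 ratio of 0.56 at 120 min. Birc3, a ligase of that complex, reached 2.71 times (2.64 to 2.79) at 60 min, and Ikbke, an IKK-related kinase, 8.12 times (7.75 to 8.51) at 120 min. Map3k14, which encodes NIK itself, stood at 0.674 of its starting level (0.644 to 0.705) at 120 min and was not called. Of 17 genes from the receptor to IKK, 2 were called higher and 1 lower at 60 min, and 5 higher and 3 lower at 120 min, with a median of 0.23. The adaptor genes of the TRIF branch went opposite ways, Ticam1 to 7.27 times (6.80 to 7.79) and Ticam2 to 0.383 (0.340 to 0.432) at 120 min.

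Of the 6 genes for brakes on IKK, 3 were called higher at 60 and at 120 min, none lower, and the median log2 ratio at 120 min was 0.83. Tnfaip3, which encodes the ubiquitin-editing enzyme A20, reached 21.5 times (20.5 to 22.5) at 60 min and 39.8 times (38.0 to 41.7) at 120 min. Of the deubiquitinase genes, Cyld stood at 1.03 at 60 min and 0.764 at 120 min and Fam105b (Otulin) at 0.933 and 1.30, none of them called. Of the 6 genes that process p105 and p100 or bind p105, none was called at 60 min, where 3.43% of all genes were called higher. At 120 min 1 was called, where 7.63% of all genes were called higher. So few calls among 6 genes do not set the list apart from all genes. The 1 called was Fbxw11, a subunit of the ligase that recognises phosphorylated IκB and p105, at 1.65 times (1.61 to 1.68). The median log2 ratio of the 6 at 120 min was 0.046. Map3k8, the kinase Tpl2 that p105 holds, was called higher at 30 min (2.26 times, 2.10 to 2.44) and 45 min (2.45 times, 2.27 to 2.65) and stood at 1.20 times at 60 min, not called. Btrc, the other recognition subunit, stood at 0.670 (0.619 to 0.726) at 120 min and was not called. Of 12 coregulators of Rel proteins, 4 were called higher at 45 min and none at 60 min, 3 were higher and 1 lower at 120 min, and the median was 0.17. Crebbp, the acetyltransferase CBP, was at 2.21 times (2.15 to 2.28) and Pdlim2, a ligase that ends Rela activity in the nucleus, at 0.516 (0.487 to 0.547). Nkrf, a repressor of NF-κB targets, stood at 1.55 times (1.44 to 1.67) at 60 min and was not called then.

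Textbook targets of NF-κB reached larger ratios. Of 22 in the table, 21 had counts. At 60 min 14 were called higher and none lower, where 3.43% of all genes were called higher. At 120 min 19 were called higher and 1 lower, where 7.63% and 6.7% of all genes were. Cxcl1, with 0 counts at 0 min and 18 at 120 min, is among those called higher. Their median log2 ratio at 120 min was 5.19, over the 19 that averaged 10 or more normalized counts. The middle one of the 5 subunits, Nfkb2, was at 1.91. Il6, Nos2 and Mmp9 are in the median of the targets, with normalized counts of only 0.855, 4.28 and 5.99 in the unstimulated library. They reached that average through stimulated libraries, and their ratios rest on few counts at 0 min. Cxcl2, a neutrophil chemokine, was at 335 times (288 to 392) at 60 min and Il1b, the inflammatory cytokine, at 2808 times (2098 to 3850) at 120 min, from normalized counts of 145 and 38.5 in the unstimulated library. Irf1, a transcription factor, was the one called lower at 120 min, at 0.288 (0.262 to 0.315).

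**Figure D4:**
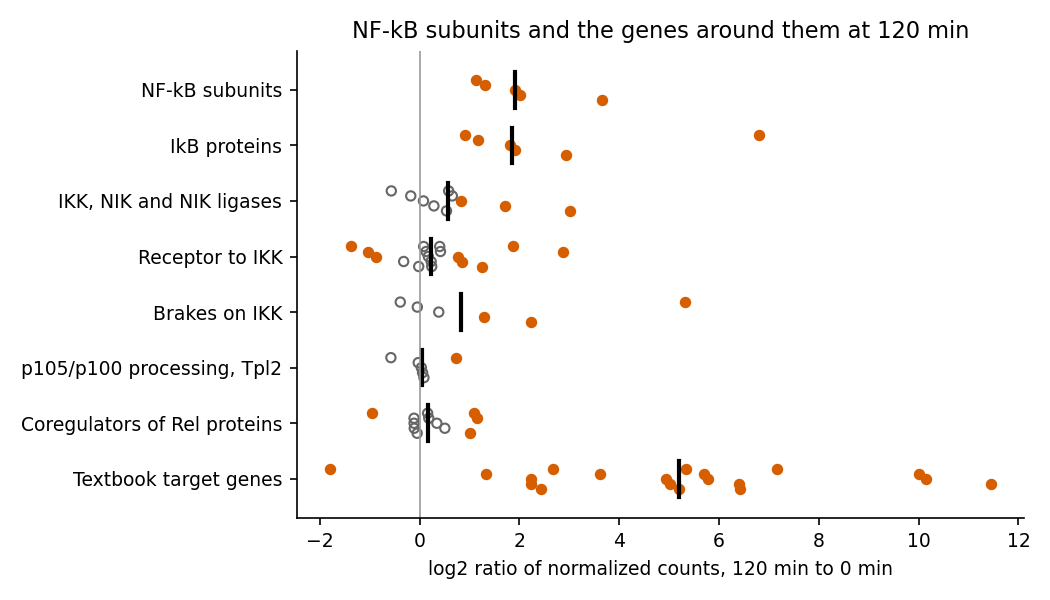
Log2 ratio of normalized counts at 120 min to 0 min (horizontal axis) for the 5 subunits and the genes of 7 lists around them (vertical axis); each point is 1 gene, filled where it was called and open where it was not, and the black bar is the group's median (over genes averaging 10 or more normalized counts). The subunits lie between 1.14 and 3.66 and the IκB genes all lie above 0. Of the 6 processing genes 5 are open points, where 7.63% of all genes were called higher. Cxcl1, Vcam1 and Il12b, with 0 counts in 1 or both of these libraries, are not drawn.

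Across the 8 libraries the members' courses were correlated to different degrees, on log2 of the normalized count plus 1. Pearson's r was 0.980 between Rel and Relb, 0.978 between Nfkb2 and Rel, 0.956 between Nfkb1 and Nfkb2 and 0.664, the lowest, between Nfkb1 and Rela. The 8 points are libraries ordered in time and share their size factors, so r describes the likeness of 2 courses and carries no test. The genes most like each member were named by the same measure over 10494 genes. For Nfkb1 these were Rhbdf2, Noc4l, Psme3, Dcbld2 and Lrrc59. Rhbdf2, which encodes a partner of the TNF-shedding protease, had an r of 0.997 and rose 3.15 times by 120 min. Those for Nfkb2 were Cirh1a, Pip5k1a, Mtmr7, Nab1 and Rnf19b, with r of 0.996 to 0.997 and rises from 1.68 times (Cirh1a) to 51.7 times (Mtmr7). Rel was most like Dmtf1, Actr3, AI607873, Sbds and Acsl4, and Actr3, a subunit of the actin-branching Arp2/3 complex, rose 1.87 times. Relb was most like Pdlim7, Sun2, Txnrd1, Zswim4 and Mtmr14, and Txnrd1, thioredoxin reductase, rose 1.82 times. Rela was most like Errfi1, Prkab2, Srxn1, Coq10b and Slc20a1, with r of 0.991 to 0.994. Errfi1, a feedback inhibitor of the EGF receptor, stood at 32.0 times and Srxn1, sulfiredoxin, at 2.89 times at 120 min. Likeness by this measure is one of shape and not of size, and the choice of measure decided the names. With normalized counts in place of their logarithm, 1 to 3 of the 5 names per member were shared, and with Spearman's coefficient 0.

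A scale that is a common factor for each library shifts all 5 mRNAs by the same amount. At 75 min, in the library with the most Rn45s, the log2 ratio of Rel was 2.92 with size factors and 2.58 with total counts, and that of Nfkb1 0.64 and 0.31. At 120 min the corresponding values were 3.66 and 3.46 for Rel and 1.32 and 1.11 for Nfkb1. Removing each library's trend with transcript length lowered Rel, the longest of the 5 transcripts, to 3.43 at 120 min and raised Relb, the shortest, from 2.01 to 2.10.

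**Figure D5:**
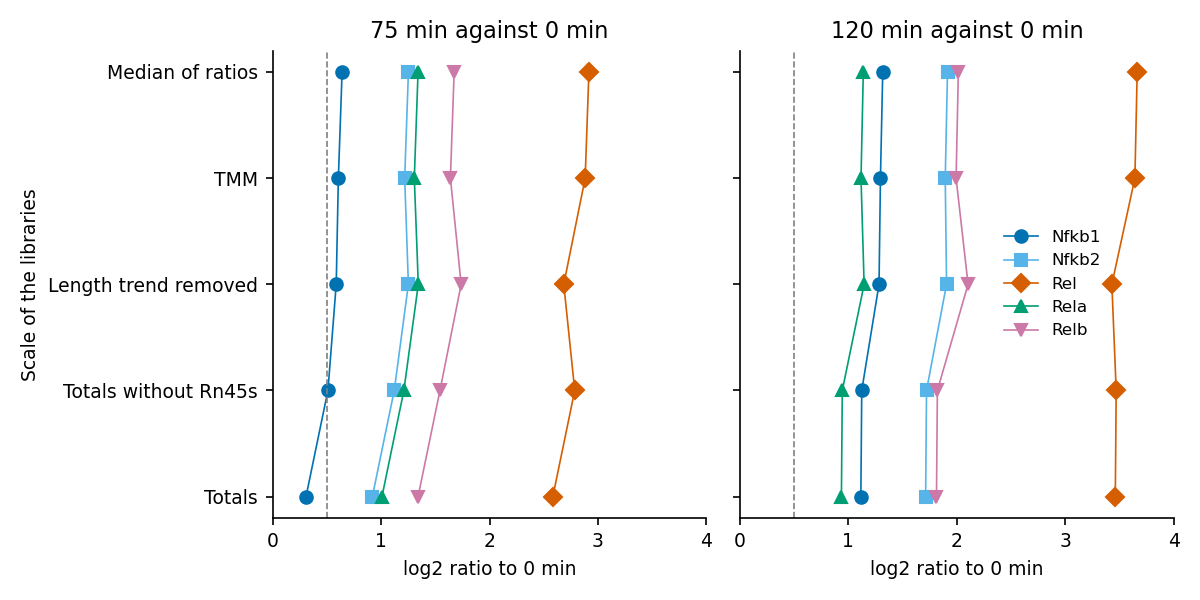
Log2 ratio to 0 min (horizontal axis) of the 5 mRNAs at 75 min (left) and 120 min (right) under 5 ways of scaling the libraries (vertical axis); points of 1 gene are joined, and the dashed line marks 0.5. Under each of the 5 scales Rel is highest and Relb next; at 75 min Nfkb1 is lowest and falls to 0.31 with total counts, and at 120 min Rela is lowest.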

How the data were processed

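Ribosomal RNA had been removed with Ribo-Zero and directional libraries sequenced on an Illumina instrument. The authors mapped 58-base reads with Bowtie (version not given in the sources used here), allowing at most 2 mismatches, to the RefSeq transcriptome (refGene of mm10), discarded reads matching more than 1 gene symbol and deposited raw read counts per gene. The submitters' processing notes also name CASAVA 1.8.2 and DESeq 1.10.1. All 8 columns were used.

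Size factors, a parametric dispersion over the 8 libraries without groups and the exact test were computed on the whole table after the study's DESeq settings (Python 3.11.15, numpy 2.4.6, scipy 1.17.1, numba 0.67.0); p is the doubled smaller tail. This code was run on simulated counts with larger changes and a smaller spread than those of the calls lost under some settings. That check therefore says nothing about those calls. A quasi-likelihood fit could not be made, since 1 library per time point leaves no residual degrees of freedom. Ratios carry exact conditional binomial intervals and rpkm exact Poisson intervals. Unique 58-mers were taken from the GENCODE vM21 transcripts of GRCm38 that carry the table's RefSeq accessions, which gave 22571 of 23143 genes a length. The ratios at 120 min rank genes that averaged 100 or more normalized counts; list medians use an average of 10 or more. Named genes are the 5 subunits, all IκB genes, the largest rise and fall of each list at 60 and 120 min, and the 5 genes most correlated with each subunit; Otulin was found as Fam105b. The members and lists were chosen with earlier results of these data known, and no list is given a test. Alternatives were total counts with and without Rn45s, TMM (edgeR 4.0.16, R 4.3.3), a length trend, the dispersions of edgeR and DESeq2 1.42.0, Benjamini-Hochberg adjustment, a log2 limit of 1 or no p, another form of p, a pseudocount of 1, libraries left out, the longest transcript as length and other measures of likeness.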

Additional observations from a re-analysis of the deposited data

How the results depend on the processing

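All 5 subunits stayed in g1 under each alternative run, and all 5 were called higher at 120 min. Of 645 log2 ratios of the members to 0 min under 20 alternatives, 607 kept their direction and side of the limits, 22 lost a call, 3 gained one and 13 changed sign. The number of members higher at 30 min went from 1 to 0 with total counts, the length trend, Benjamini-Hochberg adjustment (also with a mean of at least 10) and a log2 limit of 1. At 45 min it went from 3 to 2 with total counts (without Relb), and with a log2 limit of 1 Relb was not called either. With Benjamini-Hochberg adjustment, alone or with that filter, the number at 45 min went from 3 to 1. With that adjustment or a log2 limit of 1 it went from 4 to 3 at 60 min (without Nfkb2) and from 5 to 4 at 90 min (without Nfkb1). The number at 90 min also went to 4 with total counts, with or without Rn45s, with TMM factors and with the edgeR dispersion. Leaving out the 30 min library had the same effect. The sign changes were all values near 0 that were not called. With total counts they were Nfkb1 at 15 (-0.0226), 30 (-0.0144) and 45 min (-0.1468) and Nfkb2 at 15 min (-0.0629). With total counts without Rn45s they were Nfkb1 at 30 (-0.0209) and 45 min (-0.0138), and with TMM Nfkb2 at 15 min (-0.0168) and Nfkb1 at 30 min (-0.0045). With the length trend they were Nfkb1 at 15 (-0.0023), 30 (-0.0179) and 45 min (-0.0165), Nfkb2 (-0.0127) and Relb (0.0273) at 15 min. Over the alternatives the log2 ratio at 120 min ranged from 3.43 to 3.67 for Rel, 1.81 to 2.10 for Relb, 1.71 to 1.92 for Nfkb2, 1.11 to 1.32 for Nfkb1 and 0.94 to 1.14 for Rela. Rpkm at 0 min scaled to the counts without Rn45s was 46.51 for Nfkb1, 19.9 for Nfkb2, 1.04 for Rel, 12.31 for Rela and 11.55 for Relb, and 41.93 for Nfkb1 with the longest transcript as the length. Leaving out the 0 min library gives no comparison. No paired analysis was possible because each time point has 1 library. With 1 library a change between time points and a difference between 2 cultures cannot be told apart, and counting error at these depths is small beside the spread assumed in the test.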
